A study of Mus musculus with 6 samples.

Results

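The 9 genes described here take part in the response of the liver to fasting. They include the gluconeogenic enzymes Pck1, G6pc and Fbp1, the amino acid catabolic enzymes Tat and Sds, and the regulators Ppargc1a and Irs2. The others are Pdk4, which spares pyruvate, and Pklr, a glycolytic enzyme whose gene declines in fasting. All 9 were selected by name, and array features carrying exactly that gene name were used. Features for 8 of the 9 were found among 27962 gene names in the array files, and Irs2 was not analysed here. Igfbp1, a secreted insulin-like growth factor binding protein whose gene is repressed by insulin, served as the gene of comparison.

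The mice were males of the 129/Sv strain, 6 to 8 weeks old when treatment began. A run-in period on control liquid diet preceded treatment in both groups. Alcohol-treated mice then received a liquid diet with 4% ethanol, and control mice received an isocaloric liquid diet in which maltose dextran replaced the ethanol. Livers were taken after 1, 2 and 4 months, and RNA of 6 mice was pooled for each diet and month. Each month's alcohol pool and control pool were hybridized together on 2 two-color arrays with the dyes exchanged. There was thus 1 pair of pools per month, and the 2 arrays of a month measured labeling and hybridization, not differences between mice. The 1-month arrays shared a slide and the 2-month and 4-month arrays shared another, so slide and the step from 1 month to the later months cannot be told apart.

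During fasting, falling insulin and rising glucagon and glucocorticoids switch the liver from storing glucose to making it. Insulin acts through the kinase AKT, which keeps the transcription factor FOXO1 out of the nucleus. When insulin is low, FOXO1 together with the coactivator encoded by Ppargc1a raises transcription of Pck1, G6pc and Igfbp1, and Pdk4 spares pyruvate, while glycolytic Pklr and the lipogenic genes decline. Ethanol oxidation also changes the redox state of the hepatocyte, which limits glucose formation from lactate.

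Values are log2 ratios of alcohol over control unless a level is named, so that 0 is no difference and 1 is a doubling. For each month the value on the array with alcohol in Cy5 is given first, then the value with alcohol in Cy3. In pooled tissue, fewer cells of a type and less RNA per cell cannot be told apart.

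Igfbp1 set the scale of comparison. Its ratios were -0.39 and -0.06 after 1 month, 1.72 and 2.23 after 2, and 2.58 and 2.89 after 4. The pools were thus close at 1 month, whereas alcohol was far above control on all 4 later arrays. The 1-month mean of -0.23 ± 0.23 (SD of 2 arrays) was no larger than the spread of its pair. For that month the study described an increase on its arrays, the opposite direction. Its own measurements in individual mice, by qRT-PCR and in serum, showed no significant change at 1 month. The mean ratio corresponded to 3.93-fold at 2 months and 6.66-fold at 4 months.

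Among the fasting genes, G6pc was below 0 on both arrays at 1 month and above 0 on both at 4 months. Pdk4 and Tat were above 0 on every array, and Sds was above 0 on both arrays at 1 and 4 months. Pklr was below 0 on both arrays at 1 month, with poor agreement between arrays later. Pck1, Fbp1 and Ppargc1a, 2 enzymes and a coactivator of glucose production, had pair means below 1.5-fold in either direction at each month.

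**Figure D1:**
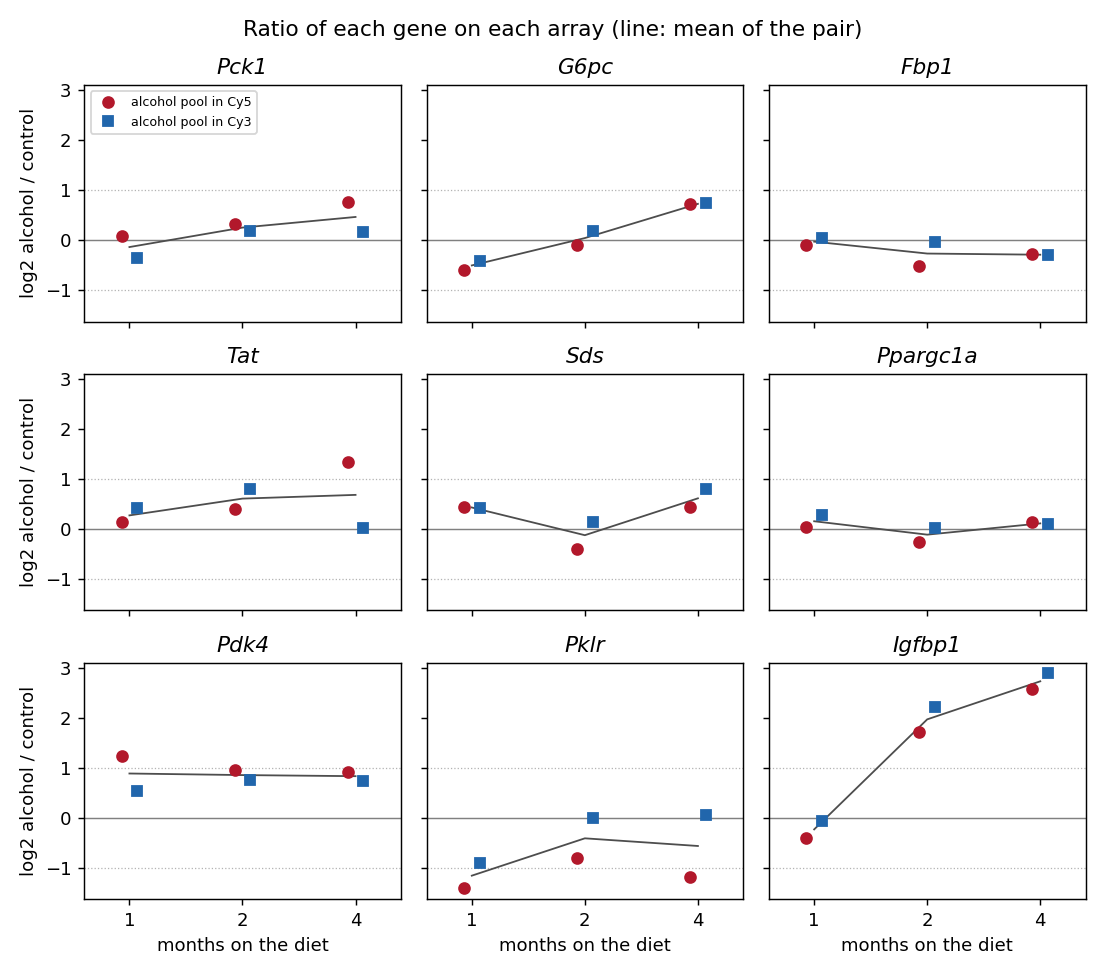
Log2 ratio of alcohol over control (vertical axis) for each gene at 1, 2 and 4 months (horizontal axis). Circles are arrays with the alcohol pool in Cy5, squares are arrays with the alcohol pool in Cy3, lines join the means of each pair, and dotted lines mark 2-fold. Igfbp1 reaches a mean of 2.74 at 4 months, and no other gene shown has a mean above 0.89 at any month.

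G6pc encodes the catalytic subunit of glucose-6-phosphatase, which releases free glucose in the last step of gluconeogenesis. Its ratios were -0.59 and -0.42 after 1 month, -0.09 and 0.18 after 2, and 0.72 and 0.74 after 4. The arrays within a month lay close together, and the 1-month and 4-month values did not overlap. Of all probes tested, 23.8% were below 0 on both arrays at 1 month and 14.8% above 0 on both at 4 months. The share that did both was not counted, so how unusual G6pc is in this cannot be said. The mean of the pair moved from -0.50 ± 0.12 (SD of 2 arrays) at 1 month to 0.73 ± 0.013 at 4 months, the latter being 1.66-fold. Levels, given as log2 signal relative to the 75th percentile of the channel, were 3.28 in the alcohol pool and 3.79 in the control pool at 1 month. At 4 months they were 4.44 and 3.71. The alcohol pools thus differed by 1.15 between 1 and 4 months, and the control pools by -0.08. With channels scaled to their median these changes were 1.70 and 0.47, and after quantile normalization 1.28 and -0.26, so that the direction in the control pools depended on the scaling.

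Pck1 encodes cytosolic phosphoenolpyruvate carboxykinase, which commits oxaloacetate to glucose. Its ratios were 0.08 and -0.36 after 1 month, 0.33 and 0.18 after 2, and 0.77 and 0.16 after 4. All 4 later arrays lay above 0, but the 2 arrays at 4 months differed by more than the distance between the 2-month and 4-month means of 0.25 and 0.47. With alcohol its level was 3.66, 5.0 and 4.68 in the order of the months. On the control diet it was 3.80, 4.75 and 4.22. Both diets therefore showed the lowest Pck1 level at 1 month, under each of the 3 channel scalings tried. From 1 to 2 months the level differed by 1.34 with alcohol and by 0.95 without.

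Fbp1 encodes fructose-1,6-bisphosphatase, the enzyme that opposes phosphofructokinase. Ratios of -0.10 and 0.04 after 1 month, -0.51 and -0.03 after 2, and -0.28 and -0.30 after 4 placed 5 of 6 arrays below 0. The pair means of -0.03, -0.27 and -0.29 remained small. Levels were 4.85, 4.37 and 3.85 with alcohol, and on the control diet 4.88, 4.65 and 4.14. Fbp1 was the one gluconeogenic enzyme among the 3 whose ratio was below 0 at 4 months.

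Tat encodes tyrosine aminotransferase, a liver enzyme induced by glucocorticoids and glucagon. Its ratios were 0.13 and 0.41 after 1 month, 0.41 and 0.81 after 2, and 1.34 and 0.03 after 4. All 6 values lay above 0, yet the pair at 4 months spanned their whole range. The alcohol level was similar on the 4-month arrays, at 4.84 and 4.67, whereas the control level was 3.50 on one and 4.65 on the other. The 4-month mean of 0.69 ± 0.93 (SD of 2 arrays) therefore rested on 1 array, and the 2-month mean of 0.61 ± 0.28 did not.

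Sds encodes serine dehydratase, which turns serine into pyruvate for gluconeogenesis and is strongly responsive to diet. The arrays gave 0.44 and 0.42 after 1 month, -0.39 and 0.15 after 2, and 0.44 and 0.79 after 4. Alcohol was above control on both arrays at 1 and 4 months, with no common direction at 2 months. Pair means were 0.43 ± 0.016, -0.12 ± 0.38 and 0.62 ± 0.25. Its level was highest in the 4-month alcohol pool, at 4.60, against 3.98 in the control pool of that month.

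Ppargc1a encodes PGC-1α, the coactivator that links fasting signals to Pck1 and G6pc transcription. It was represented by 2 probes. The brighter probe gave 0.04 and 0.27 after 1 month, -0.25 and 0.03 after 2, and 0.13 and 0.09 after 4. The other gave -0.10 and -0.02, then 0.21 and -0.06, then 0.22 and -0.05. No pair mean of either probe was larger in size than 0.16. The probes disagreed in sign at 1 and 2 months and both were slightly above 0 at 4 months. Their levels over time also differed: on the brighter probe the 4-month pools were the highest (0.72 with alcohol and 0.61 without), and on the other the 2-month pools were (-0.47 and -0.53).

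Pdk4 encodes pyruvate dehydrogenase kinase 4, which phosphorylates and inactivates pyruvate dehydrogenase so that pyruvate is kept for glucose synthesis. It was the only one of the genes not well above background throughout (9 of 12 channels). Ratios were 1.24 and 0.54 after 1 month, 0.97 and 0.75 after 2, and 0.93 and 0.75 after 4. The means of 0.86 ± 0.15 at 2 months and 0.84 ± 0.13 at 4 months corresponded to 1.81-fold and 1.79-fold. At 1 month neither array measured the control pool well above background and 1 of 2 measured the alcohol pool so. The mean there was 0.45 with normexp and loess in place of 0.89. A limit computed in place of the ratio put alcohol 1.23-fold above control. It averages the alcohol value over both arrays, including the one not well above background, and so is no firm lower bound. The limit uses each channel by itself after loess and Aquantile scaling, and dye bias can enter it.

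Pklr encodes the liver and red cell pyruvate kinase, the last step of glycolysis, and is induced by glucose and insulin. Its ratios were -1.41 and -0.90 after 1 month, -0.81 and -0.01 after 2, and -1.18 and 0.06 after 4. Both arrays put the alcohol pool below control at 1 month, and at the later months only the array with alcohol in Cy5 did so clearly. The mean at 1 month was -1.16 ± 0.36, which is 0.449 of the control. At 2 and 4 months the means were -0.41 ± 0.57 and -0.56 ± 0.88, each no larger than the spread of its own pair. In every month the Cy5 array gave the lower value. At 4 months the alcohol level was 2.52 and 2.58 on the 2 arrays, while the control level was 3.70 and 2.52.

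The regions just before the transcription starts of Igfbp1, G6pc and Pklr are shown because they belong to the gene of comparison, to the member that turned direction and to the member that was lowered at 1 month. Sequences are from RefSeq on mouse build GRCm38.p6, plus strand, 250 bases up to the annotated start. Capitals in Igfbp1 (chr11:7197537-7197786) and G6pc (chr11:101367466-101367715) mark CAAAACA or its reverse complement, the core of the insulin response element that FOXO1 binds. Capitals in the second of 2 annotated Pklr regions (chr3:89136373-89136622) mark CACGGG followed after 5 bases by CCCGTG, the form of the carbohydrate response element of this gene.
Igfbp1: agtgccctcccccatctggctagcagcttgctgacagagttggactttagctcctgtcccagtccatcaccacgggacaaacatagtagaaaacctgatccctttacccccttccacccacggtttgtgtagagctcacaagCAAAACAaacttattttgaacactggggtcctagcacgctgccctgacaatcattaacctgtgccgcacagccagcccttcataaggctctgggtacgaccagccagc
G6pc: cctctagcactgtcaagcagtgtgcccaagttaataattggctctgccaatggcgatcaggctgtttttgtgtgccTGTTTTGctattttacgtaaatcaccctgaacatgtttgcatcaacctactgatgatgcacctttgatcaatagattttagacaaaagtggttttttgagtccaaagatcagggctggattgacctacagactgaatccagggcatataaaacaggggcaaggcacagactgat
Pklr: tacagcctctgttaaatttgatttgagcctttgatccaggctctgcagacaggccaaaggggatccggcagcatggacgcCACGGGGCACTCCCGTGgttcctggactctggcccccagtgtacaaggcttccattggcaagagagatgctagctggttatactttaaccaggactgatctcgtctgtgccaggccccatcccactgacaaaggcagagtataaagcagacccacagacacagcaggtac

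The motif CAAAACA was searched on both strands in windows of 300 bases, which add 50 bases after the start. It began 108 bases before the start of Igfbp1, 174 before that of G6pc and 37 before that of Irs2, and was in none of the other windows. In all, 3 of 9 genes with a window held it, these 9 being Igfbp1 and the members other than Sds, which had none. The genes had 10 windows, since Pklr had 2, and the motif was in 6.28% of 32851 windows genome-wide. GTAAACA, the other FOXO1 core, and TGACGTCA, the full cyclic AMP response element, were in 0 of the 9 genes, against 3.65% and 1.79% of all windows. The spaced motif of Pklr, chosen after that sequence had been seen, began 170 bases before the start and was in 1 of 32851 windows, Pklr itself. A match of letters describes the sequence and measures no binding.

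Counted by a threshold of 2-fold on the pair mean with a technical p below 0.05, 1 of the 8 genes was lowered at 1 month, namely Pklr, against 0.0870% of the 37922 probes tested in that direction. The call was lost on the array with alcohol in Cy3 alone (-0.90), and also when 2-fold was required on each array. No gene of the 8 was raised at 1, 2 or 4 months, where the share of all probes raised was 0.137%, 0.174% and 0.367%. None was lowered at 2 or 4 months, where 0.137% and 0.295% of probes were. This p reflects technical error only and is no test of alcohol.

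With the threshold at 1.5-fold, the numbers raised were 1, 2 and 4 of 8 at 1, 2 and 4 months, against 0.374%, 0.659% and 1.60% of all probes. The gene at 1 month was Pdk4, where neither array measured the control pool well above background. Those at 2 months were Pdk4 and Tat, and those at 4 months were Pdk4, G6pc, Tat and Sds. Pklr at 1 month was the only gene lowered at this threshold, against 0.356% of probes. The median ratios of the 8 genes were 0.06, -0.03 and 0.54, compared with 0, 0.01 and -0.01 over all probes tested. Above 0 on both arrays of a month were 4 of 8 genes at 1 month, 3 at 2 months and 6 at 4 months, against 22.0%, 17.5% and 14.8% of probes. Below 0 on both arrays were 2 genes (G6pc and Pklr), 2 (Fbp1 and Pklr) and 1 (Fbp1), against 23.8%, 17.6% and 17.5%.

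Pdk4 and Tat were above 0 on all 6 arrays, as were 1.49% of probes tested. None of the 8 was below 0 on all 6, as were 2.38% of probes.

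The mean ratio over the 3 months was tested with limma, with each month's pair of arrays as 1 value. No probe of the 37922 passed an adjusted p of 0.05 (0%), 3028 had an unadjusted p below it, and a t-test without moderation also called 0. Pdk4 came closest among the 8, with a mean of 0.86 ± 0.058 (SE, limma adjusted p = 0.212). That estimate includes the 1-month ratio near background, and without month 1 it was 0.85 ± 0.069 (limma adjusted p = 0.378). Tat had a mean of 0.52 ± 0.0998 and Pklr one of -0.71 ± 0.158, both with a limma adjusted p of 0.620. Estimates for Sds (0.31 ± 0.154), Pck1 (0.19 ± 0.128), G6pc (0.09 ± 0.237), Ppargc1a (0.05 ± 0.079) and Fbp1 (-0.19 ± 0.079) had limma adjusted p-values from 0.620 to 0.934. The mean of Igfbp1 was 1.49 ± 0.576 (limma adjusted p = 0.620).

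Progressive change was tested as a slope per doubling of the months. G6pc had a slope of 0.62 ± 0.081 and Igfbp1 one of 1.48 ± 0.219, each with a limma adjusted p of 0.616. Pck1 had a slope of 0.30 ± 0.083 (limma adjusted p = 0.627). The other members had slopes between -0.13 (Fbp1) and 0.30 (Pklr). The slope of Pdk4 was -0.03 ± 0.079, but it uses the 1-month ratio that was not above background, and it was 0.18 with normexp and loess. No probe passed (0%), 2813 had an unadjusted p below 0.05, and the t-test without moderation called 1. With normexp background correction and loess, G6pc (slope 0.61, limma adjusted p = 0.0445) and Igfbp1 (slope 1.47, limma adjusted p = 0.0334) were among 50 probes that passed.

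**Figure D2:**
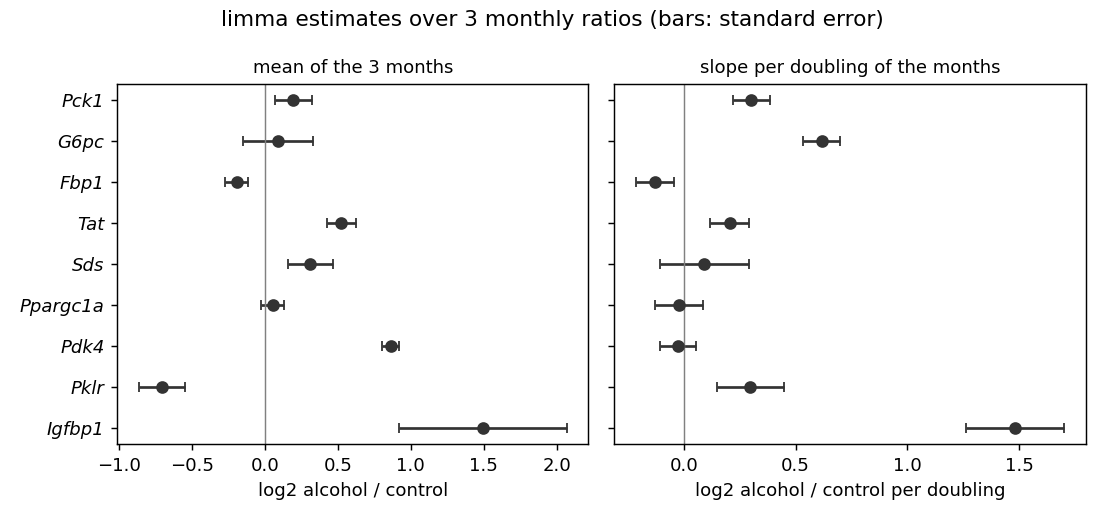
Estimates from limma for each gene, as the mean log2 ratio of alcohol over control over 3 months (left) and as its slope per doubling of the months (right). Points are estimates and bars are standard errors. Pdk4 has the narrowest bar in the left panel, at 0.86 ± 0.058, and G6pc has the highest slope after Igfbp1 in the right panel.

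Set against Igfbp1 on the same array, 5 of the 8 genes had the higher ratio on both arrays at 1 month, as did 60.8% of 37921 probes, and 2 the lower (G6pc and Pklr), as did 2.37%. At 2 and 4 months all 8 had the lower ratio on both arrays, as did 37862 (99.8%) and 37911 (100% when rounded) of the probes. None had the higher ratio, as 0.0211% and 0.0132% did, so these counts show nothing particular to the members. Pdk4 was nearest to Igfbp1 at 2 months, with a difference of -1.12, and at 4 months, with one of -1.90. Pklr was farthest at both, with differences of -2.38 and -3.30. G6pc differed from Igfbp1 by -0.28, -1.93 and -2.01.

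Over all 3 months the limma difference from Igfbp1 ranged from -2.20 (Pklr) to -0.63 (Pdk4), each ± 0.896 (SE), with adjusted p-values from 0.147 to 0.481, and 1 probe of 37921, no member, passed in the negative direction (0.00264%). The single Igfbp1 value of each month is subtracted from every probe, so this error is that of Igfbp1. Without month 1, 37905 probes passed, all 8 genes among them, with differences from -2.84 (Pklr) to -1.51 (Pdk4). Nearly every probe on the array passed there, so nothing particular to the members can be read from it.

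Levels in the separate pools complete the ratios. For Igfbp1 the alcohol pools were at 1.66, 3.36 and 4.03, and the control pools at 1.89, 1.39 and 1.29. For Pdk4 both diets gave their lowest level at 1 month, -3.41 with alcohol and -4.29 without, and then -2.23 and -3.08 at 2 months, close to the -2.07 and -2.90 of the last month. The 2-month and 4-month Pdk4 levels on the same diet lay within the spread of their arrays. For Pklr the alcohol pools were at 2.18, 2.33 and 2.55, and the control pools at 3.33, 2.74 and 3.11. Across the months the Pklr order changed with the scaling, since the change in the alcohol pools from 1 to 4 months was 0.37 as given, 0.92 with median scaling and -0.09 after quantile normalization.

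**Figure D3:**
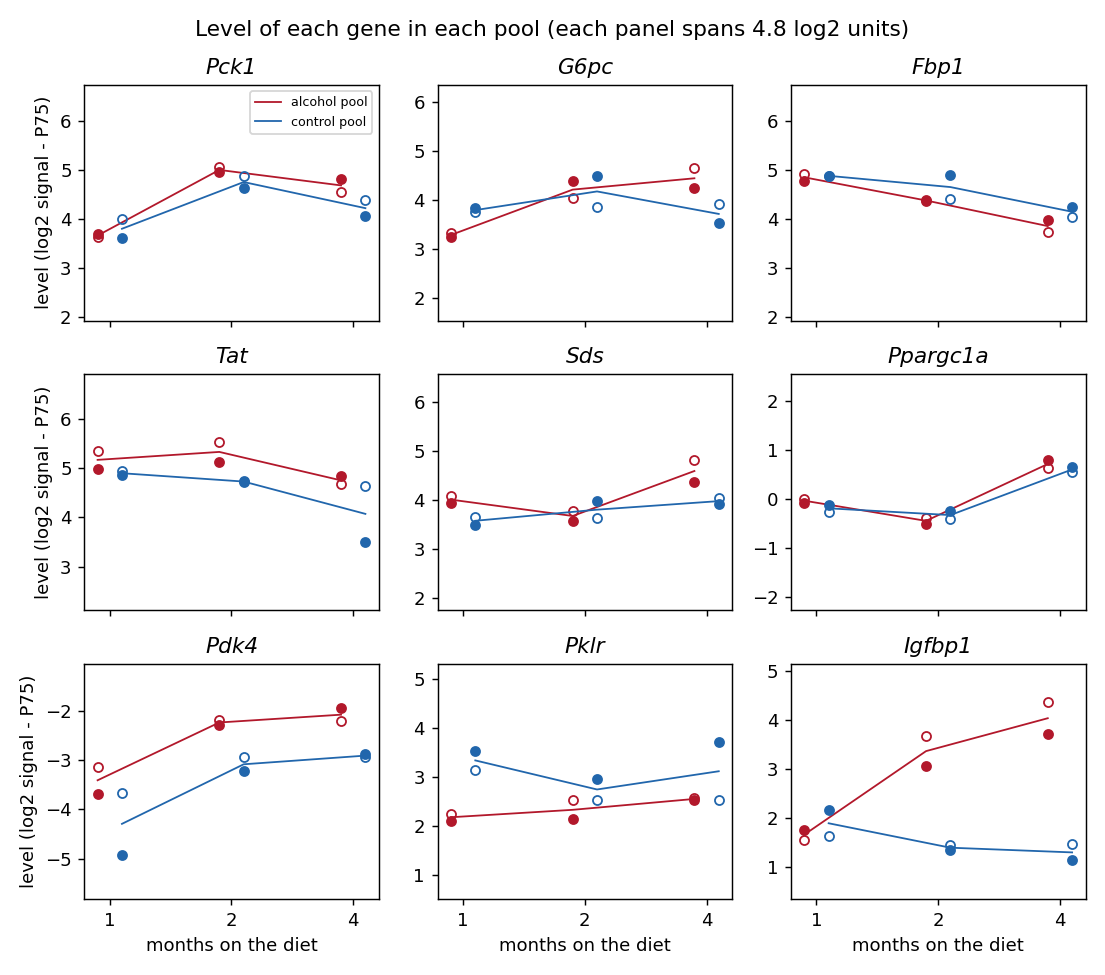
Level of each gene (log2 signal minus the 75th percentile of its channel, vertical axis, 4.8 log2 units in each panel) in the alcohol and control pools at 1, 2 and 4 months. Filled points are from the array with alcohol in Cy5, open points from the array with alcohol in Cy3, and lines join the means of each pool. Igfbp1 separates the diets at 2 and 4 months, and for Tat and Pklr at 4 months the control points lie far apart.

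Of 26 measured genes from pyruvate to free glucose, including transporters and shuttle enzymes, 0 were raised or lowered at 2-fold at any month. By month and direction, 0.0870% to 0.367% of all probes were, so a count of 0 shows little for a list of this size. G6pc, raised at 4 months, was the only one past 1.5-fold, against 1.60% of all probes. The medians of the 26 were 0.04, -0.08 and 0.07. Of 20 genes of amino acid catabolism in fasting, 0 passed 2-fold, against the same shares. At 1.5-fold, 0, 1 and 3 were raised at 1, 2 and 4 months, against 0.374%, 0.659% and 1.60% of all probes. The medians of the 20 were 0.27, 0.08 and 0.10, and 3 were above 0 on all 6 arrays, as were 1.49% of probes tested. These were Tat, Sdsl (from 0.09 to 0.39) and Aass (from 0.15 to 1.02), the last 2 being named after their values were seen.

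Of 15 measured genes that insulin represses through FOXO1, 3 were raised at 2 months, against 0.174% of all probes. They were Igfbp1, Insig2 (1.25 ± 0.58), an anchor of the sterol sensor, and Cdkn1a (1.30 ± 0.14), a cell cycle inhibitor. Insig2 had 2 further probes at that month, at 1.09 and 0.04. At 4 months only Igfbp1 was raised, against 0.367% of all probes, and the medians were -0.08, 0.04 and 0.14. In this list Pdk4 was above 0 on all 6 arrays. Sesn3 was below 0 on all 6 (pair means -0.09, -0.39 and -0.36) and was named after its values were seen.

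Of 14 measured genes that insulin induces, 3 were lowered at 2-fold at 1 month, against 0.0870% of all probes. They were Pklr, Fasn, the fatty acid synthase (-1.34 ± 0.44), and Acly, the ATP citrate lyase (-1.0 ± 0.49). The second probe of Fasn gave -1.28, and the second probe of Acly, not well above background on every array, gave -0.15. At 2 months Thrsp, a lipogenic nuclear protein, was lowered (-1.34 ± 0.25), and at 4 months none of the 14 was. The shares of all probes lowered at these months were 0.137% and 0.295%. The medians were -0.49, -0.11 and -0.04.

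Glucocorticoid targets and the genes of fatty acid use in fasting held the most members above control. Of 12 glucocorticoid targets, 0 were raised at 1 month, 2 at 2 months (Ddit4 and Lcn2) and 5 at 4 months. The shares of all probes raised were 0.137%, 0.174% and 0.367%. The 5 at 4 months were Mt1 (1.5 ± 0.13), a metallothionein, Dusp1 (1.27 ± 0.30), Sgk1 (1.23 ± 0.46), Ddit4 (1.15 ± 0.096) and Lcn2 (1.04 ± 0.47). The medians were 0.25, 0.43 and 0.75, and 6 of the 12, Tat and Fkbp5 among them, were above 0 on all 6 arrays, against the 1.49% given above. The count uses the brightest probe: at 1 month the third Fkbp5 probe was at -0.08, and at 2 months the second Mt1 probe was at -0.30. The second Sgk1 probe, which was not well above background throughout, was at 0.13 at 4 months. Of 20 genes of lipid and ketone metabolism in fasting, 5 were above 0 on all 6 arrays, again against 1.49% of probes. They were Cyp4a14, Cyp4a10, Acot1, Vnn1 and Ehhadh. Cyp4a14, a microsomal omega-hydroxylase induced by PPARα, was at 2.44 ± 0.083, 1.81 ± 0.33 and 1.16 ± 0.12. Fgf21, the fasting hormone of the liver, was at -0.17 ± 0.090, 1.85 ± 0.22 and 0.78 ± 0.079. Lpin1, a phosphatidate phosphatase and coactivator, was at -1.07 ± 0.24, 1.48 ± 0.57 and 0.56 ± 0.97. Its arrays at 4 months, -0.13 and 1.24, had no common direction.

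**Figure D4:**
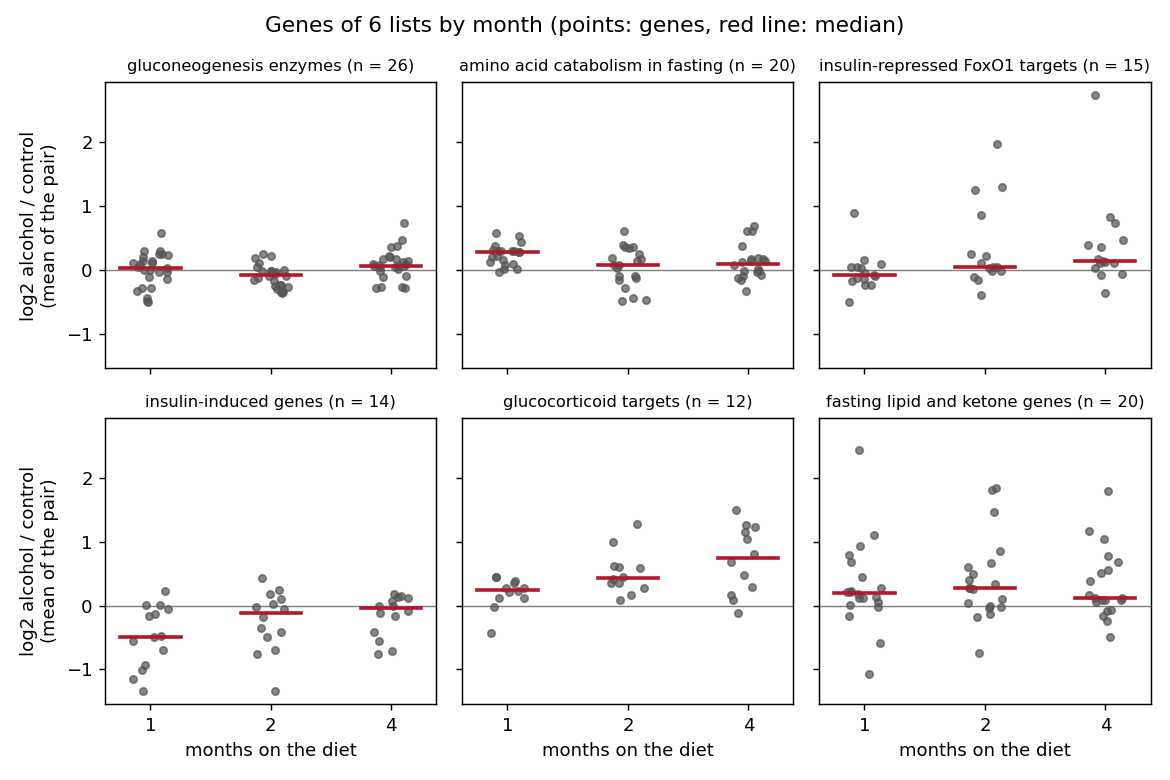
Log2 ratio of alcohol over control (mean of the pair, vertical axis) for the genes of 6 lists at 1, 2 and 4 months. Each point is a gene, the red line is the median, and n is the number of genes measured. The insulin-induced genes have a median of -0.49 at 1 month, the glucocorticoid targets one of 0.75 at 4 months, and the gluconeogenesis enzymes stay between -0.08 and 0.07.

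Few genes of the remaining lists passed 2-fold, a threshold that 0.0870% to 0.367% of all probes passed by month and direction. None of 13 pyruvate genes, 13 glycogen genes and 19 genes of insulin and glucagon signaling did so. Of the 13 glycogen genes, 2 were below 0 on all 6 arrays, as were 2.38% of probes tested. They were Ugp2 (-0.15, -0.76 and -0.59) and Gys2 (-0.49, -0.40 and -0.47), both of glycogen synthesis. Ppp1r3c of the same list went the other way at the later months (0.04, 0.70 and 0.60). Gys2 and Ppp1r3c were named after their values were seen. The medians of the glycogen list were 0.04, -0.08 and -0.07. Among 17 genes of glucose uptake and glycolysis, only Pklr passed 2-fold, lowered at 1 month, against 0.0870% of all probes. Among 21 regulators of fasting, Foxa2 was lowered at 4 months (-1.01 ± 0.21), against 0.295% of all probes. Of 15 clock genes, 4 were below 0 on all 6 arrays, as were 2.38% of probes tested. Dbp was lowered at 2 months (-1.0 ± 0.11), against 0.137% of all probes. No time of day of tissue collection is used here, and the part of the clock genes in these results was not tested. No list had a gene called by limma for the mean or the slope.

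By the distance between the 6 single-array ratios, the genes nearest to Pklr among 27898 probes were Acly (0.746), Pnpla7 (0.780) and Satl1 (0.813). Those nearest to Igfbp1 were Gadd45b (1.13), Cyp2c38 (1.84) and Tsku (1.93). No member of the fasting genes was among them.

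The 8 measured hepatocyte markers, among them Alb, Apoa1 and Cps1, were well above background in all 12 channels. None passed 2-fold at any month, though the level of Alb ranged from -1.88 to 5.56 over the channels. Markers of other cells, such as Krt7 and Clec4f, were also well above background in all 12 channels. Detection by itself therefore does not identify the cells in the pools. Some markers of other cells differed between the pools. At 1 month, when Pklr was lowered, 2 of 5 blood markers were raised (Hba-a1, 1.51, and Hbb-b1, 1.97), against 0.137% of all probes. The summed level of the list, in units of the 75th percentile, was 77.9 to 100.2 in the alcohol pool against 23.0 to 36.6 in the control pool. Adgre1, 1 of 9 myeloid markers, was also raised at 1 month (1.23, and 0.31 on its second probe). At 4 months 3 of 14 acinar pancreas markers were raised, against 0.367% of all probes: Cela2a (3.75), Pnliprp1 (2.42) and Cpb1 (2.17). The sums of that list were 28.7 to 31.0 against 21.9 to 24.2, while Amy2a5 was not well above background in any channel. At that month Hba-a1 (0.61) and Hbb-b1 (0.63) were also past 1.5-fold, with blood sums of 38.3 to 50.7 against 28.7 to 34.6, and Alas2, another blood marker, was at -0.75 at 2 months and lowered at 4 months (-2.00). Stellate, sinusoidal, bile duct and endocrine markers gave 0 calls at 2-fold. At 1.5-fold, 2 of 7 sinusoidal markers were raised at 1 month, Lyve1 (0.95) and Cdh5 (0.59), against 0.374% of all probes. The median of the sinusoidal list at that month was 0.31. The part of these cells in the fasting gene ratios was not tested.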

How the data were processed

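The authors deposited Agilent Feature Extraction 9.1.1.1 files of 6 arrays, holding spot intensities as scanned and as corrected for background and dye, the log10 ratio of Cy5 over Cy3, its modeled error (a score) and a technical p-value, which was not used. A deposited table of log10 ratios, already turned to alcohol over control, served as an alternative. Ratios were turned to alcohol over control, converted to log2 and averaged over spots and over each dye-swap pair. Calls used a p from the deposited error. Levels are log2 processed signal minus the 75th percentile of the channel. The 3 monthly values were tested in limma 3.58.1 (R 4.3.3), for 37922 probes that 1 or more of the 12 channels measured well above background, adjusted by Benjamini-Hochberg, after tests on simulated data. The number of arrays limits the precision, and p-values measure the spread between months, not between mice. The brightest probe stands for a gene. Of 25510 probes with a RefSeq accession, 22951 were matched to a current symbol.

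Members and gene lists were chosen with earlier results of these data known. Named genes are the members, Igfbp1, list genes called at any month or on one side of 0 on all 6 arrays with a mean of at least 0.5 in size and both channels above background, and the 3 genes nearest to Pklr and Igfbp1. The rest was done in Python 3.11.15 with pandas 2.3.3 and numpy 2.4.6; scipy 1.17.1 gave the technical p, and matplotlib 3.10.9 the plots. The alternatives were normexp (offset 50) with loess, the deposited table, error-weighted means, single arrays, median centring, other filters, thresholds, probe rules, channel scalings and time scale, leaving out a month, and an unmoderated t-test.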

Additional observations from a re-analysis of the deposited data

Results flagged for a closer look

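G6pc was below 0 on both arrays at 1 month and above 0 on both at 4 months, a difference of 1.23 in log2 ratio between those months. The difference between those 2 months was not tested by itself, and the share of all probes that changed side in this way was not counted. The limma slope over the 3 months, 0.62 ± 0.081 per doubling, had an adjusted p of 0.616.

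Igfbp1 was likewise below 0 on both arrays at 1 month and above 0 on both arrays of each later month. Its ratio differed from month 1 by 2.20 at 2 months and by 2.97 at 4 months. These differences were not tested by themselves, and the limma slope of 1.48 ± 0.219 had an adjusted p of 0.616. The 1-month arrays were on another slide than the later ones.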

How the results depend on the processing

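Of 108 monthly ratios recomputed with both arrays at equal weight, 107 moved by no more than the SD of their 2 arrays, the exception being Fbp1 at 4 months with normexp and loess (-0.26). Pdk4 at 1 month was 0.45 in that setting against 0.89 as given. A single array lies within that SD by construction and is not counted. The deposited table holds the same ratios, and averaging over the probes of a gene alters only Ppargc1a. Apart from that gene, agreement under these alternatives was fixed in advance. None of the called ratios changed sign. The number of genes raised was 1, 2 and 4 at 1, 2 and 4 months with the 1.5-fold threshold. The call of Pklr at 1 month was lost when 2-fold was required on each array (0) and when the array with alcohol in Cy3 was used alone. With single arrays the number lowered at 1 month ranged from 0 to 1, and at 4 months the numbers raised and lowered each ranged from 0 to 1 (Tat and Pklr on the array with alcohol in Cy5).

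For the limma mean, 9 probes passed with normexp and loess and 6 with the filter on both channels, against 0 otherwise, with no member among them. For the slope, 50 passed with normexp and loess and 1 with the t-test without moderation. For the difference from Igfbp1, 0 passed with the t-test, and leaving out a month gave from 0 to 37905. The causes of these changes were not tested. The count of 37905 came from leaving out month 1, the month in which Igfbp1 was not raised. Each monthly ratio already pairs the pools of a month on the same array. Precision is limited by 1 pool per diet and month, and Pdk4 is limited by its dim signal at 1 month. Levels across months moved with the channel scaling in 57 of 108 recomputed changes.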
